A study of Mus musculus with 9 samples.

Results

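The comparison described here sets gastrocnemius muscle that received the MBNL1 decoy vector, AAV-GFP-MBNL1∆, against gastrocnemius muscle that received saline. It was defined by the libraries' labels: the 3 libraries titled for AAV-GFP-MBNL1∆ and the 3 titled for saline, and all genes on chromosomes 1 to 19. These 6 libraries are part of a series of 9, and 50957 of the 55401 genes counted in each library were autosomal. Of these, 17108 had enough reads to be tested. All 9 muscles came from wild-type mice of the FVB strain, aged 2 to 3 months and the muscle was collected 7 weeks after the injection. The series' other group received AAV-GFP, an adeno-associated virus vector that carries green fluorescent protein without the MBNL1 part, and its values are given below as context, without a test. The labels do not state the promoter, serotype or dose of the vectors, the time of day of collection, the sex of the mice, or whether each library is a separate animal, so the p-values measure the spread between libraries.

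MBNL1 is an RNA-binding protein of the muscleblind family that steers alternative splicing and the localisation of messenger RNAs, and in adult muscle it sustains the adult splice forms of channels, sarcomere proteins and metabolic genes. In myotonic dystrophy type 1, transcripts with expanded CUG repeats bind MBNL proteins and hold them in nuclear foci. The series title describes a decoy protein that binds such repeats with high affinity. The FVB muscles are wild type, so the comparison sets normal muscle given the decoy vector against normal muscle given saline. The capsid, the green fluorescent protein and the MBNL1 part differ together between these groups, so the decoy's own effect cannot be told apart. Adeno-associated virus vectors persist in muscle fibres mainly as episomes, and they can draw innate and adaptive immune responses against the capsid or the transgene product.

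Values are CPM, a gene's reads as parts of 1e+06 reads of the library after scaling for composition, and 3 values in a row are replicates 1, 2 and 3 of a group. A log2 change is the fitted log2 of the decoy over the saline level, with its standard error (SE). Counts assigned to genes came to 58667692 to 76970849 a library. Of the markers of the labelled tissue, Acta1, skeletal muscle actin, stood at 25697 to 36694 CPM in the 6 libraries. Of 5 heart markers, Nppa and Myl7 had 0 counts in all of them, Tnni3 stood under 1 CPM and Tnnt2 at 2.997 to 5.89 CPM, but Myh6, a heart myosin, stood at 129 to 219 CPM in saline and 71.6 to 119 CPM in the decoy libraries. All 4 liver and all 4 neuron markers stood under 1 CPM, with Apoa1 and Tubb3 at 0. The groups also differed in sex-linked genes. Xist, transcribed from the inactive X chromosome, stood at 118, 123 and 100.2 CPM in saline and at 0.0852, 0.0172 and 0.0279 CPM in the decoy libraries, and Ddx3y of the Y chromosome at 0.662, 0.389 and 0.595 CPM in saline and at 78.1, 80.1 and 78.2 CPM in the decoy libraries. The AAV-GFP libraries followed the saline pattern for Xist, at 105.9 to 136 CPM. AAV-GFP 1 also held some reads of the Y chromosome, with Ddx3y at 2.58 CPM and Eif2s3y at 1.11 CPM. Eif2s3y had 0 counts in saline and stood at 47.0 to 57.2 CPM in the decoy libraries. Every difference between the decoy and saline libraries given below is therefore also a difference between libraries with a male and with a female pattern, and the vector and sex cannot be told apart here. The AAV-GFP values given as context do not part them either, since the AAV-GFP libraries share the Xist pattern of saline.

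Across the autosomes, 2235 of 17108 genes tested (13.1%) were higher in the decoy libraries and 2165 (12.7%) were lower, 25.7% in all, at an adjusted p under 0.05 in edgeR's quasi-likelihood test of the 6 libraries. The median change among called genes was 1.46-fold in either direction. At least 4-fold changes numbered 236 among the higher genes and 66 among the lower genes. When all 9 libraries were fitted together, with the wider spread of the AAV-GFP libraries entering the error of every gene, 859 genes were higher (4.83% of 17791 tested) and 804 lower (4.52%), 9.35% in all. Both fits called 853 genes higher (4.99% of 17108) and 788 lower (4.61%). The fits differ in the spread they assume: the biological coefficient of variation was 0.1142 over 6 libraries and 0.232 over 9. Without saline 2 the 6-library calls fell to 1418 higher and 1390 lower. The range of CPM in the decoy libraries did not overlap that in saline for 43.3% of the genes tested. A principal component holding 70.5% of the variance separated the groups. Counts of list members below are to be read beside the shares of 13.1% higher and 12.7% lower.

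**Figure D1:**
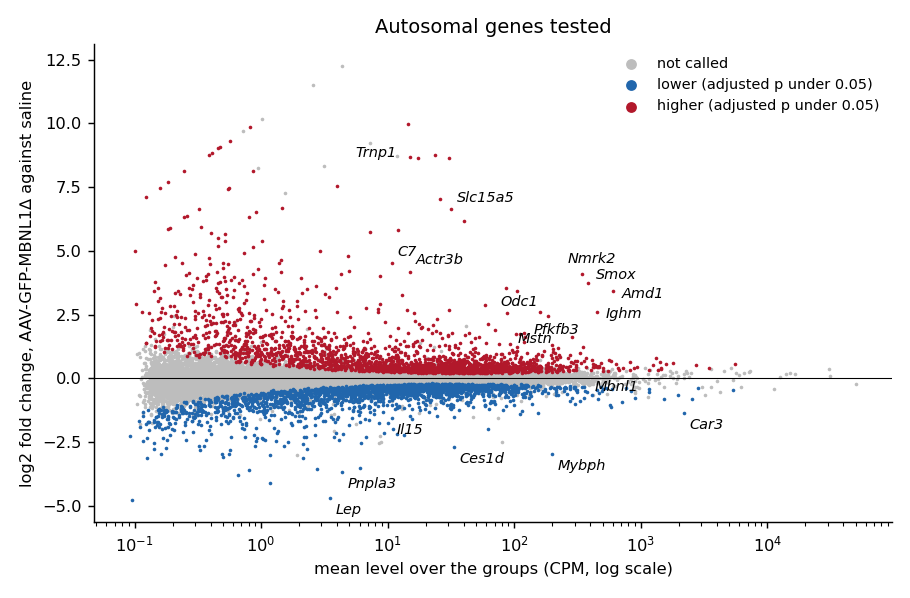
Log2 fold change of the decoy against the saline libraries (vertical axis) against mean level in CPM (horizontal axis, log scale), 1 point for each of the 17108 autosomal genes tested. The 2235 genes called higher are red, the 2165 called lower are blue and the rest grey, and Smox, Amd1 and Nmrk2 stand out as abundant genes with large changes.

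Mbnl1, Mbnl2 and the other listed genes of splicing control showed small differences or none that passed the test. Mbnl1 stood at 558, 565 and 424 CPM in saline and 671, 544 and 597 CPM in the decoy libraries, and the groups overlapped (log2 change 0.23, SE 0.13, adjusted p = 0.231). Whether reads of the vector's MBNL1 part are counted at the mouse gene was not tested. Mbnl2 stood at 352, 368 and 296 CPM in saline and 304, 262 and 289 CPM in the decoy libraries (log2 change −0.25, SE 0.11, adjusted p = 0.114). Of 19 tested members of a list of MBNL, CELF and RBFOX splicing regulators, 0 rose and 2 fell: Qk, a regulator of muscle and glial splicing, by 0.44 on the log2 scale (SE 0.10, adjusted p = 0.0103) and Hnrnpa1 by 0.31 (SE 0.08, adjusted p = 0.0218). The lower members were 10.5% of the list, under the 12.7% of all autosomal genes called lower. The 9-library fit ended both calls (adjusted p = 0.136 for Qk and 0.0648 for Hnrnpa1). At an unadjusted p under 0.05 there were 0 higher and 4 lower members, and DESeq2 called 0 and 3. The lower count was 1 without decoy 1 or saline 2.

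Muscle genes whose splicing is known to depend on MBNL proteins were tested for their total level, since counts per gene do not hold splice forms. Of 34 tested, 4 rose (Arfgap2, Vldlr, Camk2d and Nfix) and 8 fell, against 3 and 1 in the 9-library fit, with a median log2 change of −0.06 beside −0.00155 over all autosomal genes. Those calls were 11.8% and 23.5% of the list, beside 13.1% and 12.7% of all autosomal genes. Arfgap2, a coat-protein regulator of the Golgi, read 121, 117 and 106 CPM in saline and 187, 188 and 197 CPM in the decoy libraries (log2 change 0.73, SE 0.08, adjusted p = 3.09e-04). Vldlr, a lipoprotein receptor, rose by 0.62 (SE 0.10, adjusted p = 0.00207) and Camk2d, a calcium-dependent kinase, by 0.42 (SE 0.08, adjusted p = 0.00349). Pdlim3, a Z-disc protein, fell from 589, 533 and 607 CPM to 448, 409 and 374 CPM (log2 change −0.49, SE 0.10, adjusted p = 0.00694). The groups did not overlap for any of these 4 genes. Nrap, an actin-anchoring scaffold, fell by 0.81 (SE 0.18, adjusted p = 0.0101), Neb, nebulin, by 0.44 (SE 0.13, adjusted p = 0.0269) and Insr, the insulin receptor, by 0.38 (SE 0.08, adjusted p = 0.00715). The 9-library fit ended the calls of Nrap, Neb and Insr (adjusted p from 0.14 to 0.279). The count of lower members was 3 without saline 2, 4 without decoy 2 or saline 1 and 5 without decoy 3.

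Among genes called by both fits, the largest rises outside the immune and complement genes were in Trnp1, Themis3, Slc15a5, Actr3b, Nmrk2, Slc30a2 and Mchr1. Trnp1 (chromosome 4, 133491100 to 133498550, minus strand, GRCm38), a nuclear protein known from neural progenitors, was close to undetected in saline, at 0.0966, 0.0288 and 0.0867 CPM, and stood at 23.5, 36.7 and 29.8 CPM in the decoy libraries (log2 change 8.67, SE 0.29, adjusted p = 1.10e-06). The AAV-GFP libraries held 0.0443 to 0.222 CPM. Slc15a5, a transporter of the peptide-transporter family (chromosome 6, 137983586 to 138079916, minus strand), read 0.676, 0.461 and 0.731 CPM in saline and 58.1, 65.7 and 65.9 CPM in the decoy libraries (log2 change 6.65, SE 0.14, adjusted p = 1.37e-09). Themis3 rose from 0.0690, 0.0144 and 0.0372 CPM to 8.32, 6.75 and 8.62 CPM (log2 change 7.55, SE 0.26, adjusted p = 1.05e-07). Groups that do not overlap were a condition for naming these 3 genes, and the lowest decoy library lay far above the highest saline library. The AAV-GFP libraries lay near saline, at 0.224 to 1.65 CPM for Slc15a5 and 0.0125 to 0.119 CPM for Themis3. They also share the Xist pattern of saline, so sex and the MBNL1 part cannot be told apart in these levels.

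Actr3b, a subunit of the actin-nucleating Arp2/3 complex, rose from 1.48, 1.71 and 1.54 CPM to 23.1, 30.6 and 32.2 CPM (log2 change 4.18, SE 0.14, adjusted p = 1.34e-07). Nmrk2, the muscle nicotinamide riboside kinase of NAD+ synthesis (chromosome 10, 81198170 to 81202051, minus strand), rose from 33.4, 34.9 and 46.6 CPM to 415, 884 and 652 CPM (log2 change 4.09, SE 0.31, adjusted p = 2.78e-04). Its level was highest in decoy 2 and lowest in decoy 1. Slc30a2, a zinc exporter, rose by 4.03 (SE 0.18, adjusted p = 1.66e-06) and Mchr1, the receptor of melanin-concentrating hormone, by 3.95 (SE 0.22, adjusted p = 3.09e-06). Among abundant genes with a mean of at least 100 CPM, Kcnab1, a potassium channel beta subunit, rose by 1.80 (SE 0.14), the amino acid transporter Slc38a4 by 1.75 (SE 0.18), the serine protease inhibitor Serpinb6a by 1.62 (SE 0.09) and the mitochondrial ATP-magnesium carrier Slc25a25 by 1.60 (SE 0.26). Their adjusted p-values ran from 2.04e-06 to 0.00589. Serpinb6a, for example, stood at 134, 147 and 141 CPM in saline and 427, 445 and 421 CPM in the decoy libraries. The strand setting of the counting is not given in the sources used here, so reads of a gene and of an antisense partner cannot be told apart. Among the genes described here, that limit applies to Arfgap2, Bhlhe41, Cacna1s, Ciita, Cxcl10, Dbp, Dhps, Dio2, Echs1, Fgf2, Il16, Irf7, Irs2, Jph1 and Kcnab1. It also applies to Mybpc1, Mybph, Neu2, Nmrk2, Nr1d1, Nrap, Nrg4, Pln, Serpinb6a, Slc25a25, Slc7a10, Srebf1, Tef, Tpi1, Tspan4 and Usp2.

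The largest falls called by both fits included several genes of fat cells, described further below, and Klhdc7a, Aldh1a7, Neu2, Cdhr3, Stc2 and Tppp2. Klhdc7a, a kelch-domain protein, fell from 3.45, 2.48 and 0.805 CPM to 0.170, 0.103 and 0.112 CPM (log2 change −4.09, SE 0.64, adjusted p = 0.00424). Stc2, the secreted glycoprotein stanniocalcin-2, fell from 13.3, 12.4 and 8.03 CPM to 2.37, 2.02 and 2.34 CPM (log2 change −2.32, SE 0.19, adjusted p = 1.02e-04). Neu2, the cytosolic sialidase, fell from 8.18, 7.10 and 5.67 CPM to 1.08, 1.62 and 1.28 CPM (log2 change −2.40, SE 0.18, adjusted p = 3.08e-05). Saline 3 was the lowest saline library for all 3. It lay above every decoy library, since groups that do not overlap were a condition for naming these genes. Aldh1a7, an aldehyde dehydrogenase, fell by 2.49 (SE 0.24, adjusted p = 1.15e-04), the cadherin-related Cdhr3 by 2.36 (SE 0.29, adjusted p = 4.75e-04) and Tppp2, of the tubulin polymerisation-promoting family, by 2.32 (SE 0.18, adjusted p = 3.84e-05). Tmem45b, a membrane protein, fell by 2.64 (SE 0.49, adjusted p = 0.00791), a call that ended without decoy 3 (adjusted p = 0.0535).

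Among abundant genes, Fyco1, an adaptor that moves autophagosomes along microtubules, fell from 228, 236 and 199 CPM to 97.1, 63.6 and 99.5 CPM (log2 change −1.35, SE 0.16, adjusted p = 8.06e-04). Aldh2, the mitochondrial aldehyde dehydrogenase, fell by 0.70 (SE 0.08, adjusted p = 4.39e-04), the membrane-skeleton protein Sptbn1 by 0.66 (SE 0.09, adjusted p = 9.93e-04) and Sparcl1, a matrix protein of vessels, by 0.66 (SE 0.08, adjusted p = 5.95e-04). The groups did not overlap for these 4, which was a condition for naming them. Lars2, the mitochondrial leucyl-tRNA synthetase, stood at 1046, 551 and 703 CPM in saline and 428, 408 and 292 CPM in the decoy libraries (log2 change −1.03, SE 0.25, adjusted p = 0.0211) and Cdk8, a Mediator kinase, at 567, 319 and 396 CPM in saline and 264, 241 and 192 CPM in the decoy libraries (log2 change −0.88, SE 0.22, adjusted p = 0.0217). Both were highest in saline 1, and both calls ended without decoy 2 or decoy 3, with adjusted p up to 0.0765 for Lars2 and 0.0828 for Cdk8. Their counts also moved together over the 9 libraries, with 0.543 to 0.657 Cdk8 counts for each Lars2 count. Whether these reads come from the mRNAs of Lars2 and Cdk8 was not tested.

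Of the polyamine genes, Odc1, Amd1, Amd2 and Smox had the largest rises. Polyamines are small organic cations that bind nucleic acids and channels. Ornithine decarboxylase (Odc1) makes putrescine, S-adenosylmethionine decarboxylase (Amd1 and its copy Amd2) supplies the propyl groups for spermidine and spermine, and spermine oxidase (Smox) turns spermine back into spermidine. In mouse skeletal muscle Odc1, Amd1 and Smox are known as androgen-responsive genes. The part of sex in these rises was not tested, and sex and the vector cannot be told apart here. Of 16 tested members of the pathway list, 6 rose and 1 fell, against 5 and 0 in the 9-library fit. Their summed level was 524 to 590.2 CPM in saline and 2228 to 2884 CPM in the decoy libraries.

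Odc1 (chromosome 12, 17544794 to 17551505, plus strand) stood at 43.7, 46.4 and 44.6 CPM in saline and 311, 234 and 281 CPM in the decoy libraries (log2 change 2.62, SE 0.11, adjusted p = 4.80e-07). Amd1 (chromosome 10, 40287458 to 40302186, minus strand) stood at 117, 96.8 and 90.5 CPM in saline and 892, 1171 and 1228 CPM in the decoy libraries (log2 change 3.43, SE 0.16, adjusted p = 8.49e-07). Amd2, a near-identical copy whose reads may be shared with Amd1 and whose count is therefore uncertain, stood at 21.9, 17.7 and 14.4 CPM in saline and 151, 199 and 229 CPM in the decoy libraries (log2 change 3.42, SE 0.21, adjusted p = 5.86e-05). Smox (chromosome 2, 131491496 to 131525922, plus strand) stood at 59.1, 58.6 and 42.8 CPM in saline and 551, 803 and 796 CPM in the decoy libraries (log2 change 3.74, SE 0.19, adjusted p = 5.94e-06). In all 4 genes each decoy library was above each saline library, with decoy 1 lowest for Amd1, Amd2 and Smox and decoy 2 lowest for Odc1. The AAV-GFP libraries held 47.8 to 75.1 CPM of Odc1, 62.3 to 109 CPM of Amd1 and 46.05 to 61.4 CPM of Smox.

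Azin1, the antizyme inhibitor that frees ornithine decarboxylase, rose from 55.2, 52.8 and 56.7 CPM to 73.2, 78.3 and 77.6 CPM (log2 change 0.48, SE 0.07, adjusted p = 0.00124), a call that ended in the 9-library fit (adjusted p = 0.0623). Oaz1, the antizyme that targets ornithine decarboxylase for degradation, fell by 0.27 (SE 0.08, adjusted p = 0.0279), which the 9-library fit did not call (adjusted p = 0.0861) and which ended without decoy 1, decoy 3, saline 1 or saline 3 (adjusted p up to 0.103). Dhps, which uses spermidine to modify the translation factor eIF5A, rose by 0.35 (SE 0.07, adjusted p = 0.0051).

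**Figure D2:**
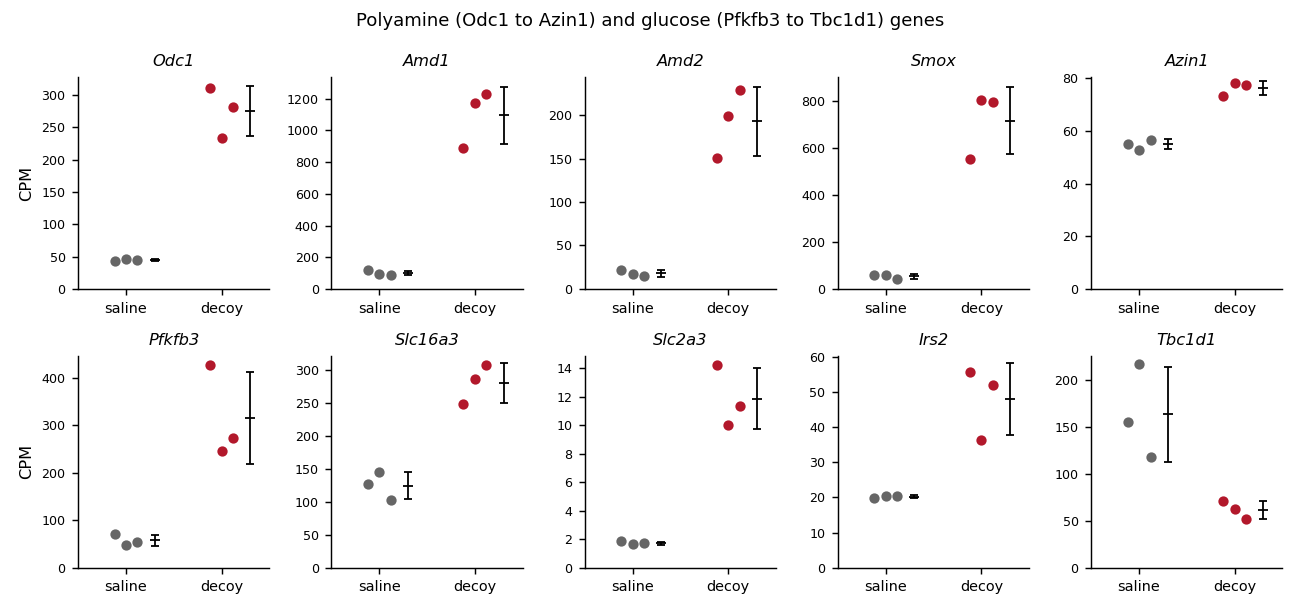
Level in CPM (vertical axes, each from 0) of 5 polyamine genes and 5 glucose genes in each saline (grey) and decoy (red) library, with the mean and SD of each group's 3 libraries as a black mark and bar. Amd1 stood at 892 to 1228 CPM in the decoy libraries against 90.5 to 117 CPM in saline, and Tbc1d1 is the gene of the 10 that was lower.

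Genes of glucose handling included members called in each direction. Of 28 tested glycolysis and glycogen genes, 5 rose (Slc16a3, Pfkfb3, Tpi1, Gpd1 and Gpi1) and 1 fell (2 and 1 in the 9-library fit), and of 24 genes of insulin signalling and glucose entry, 4 rose and 7 fell (3 and 3). Shares higher and lower were 17.9% and 3.57% for glycolysis and 16.7% and 29.2% for insulin signalling. All autosomal genes had 13.1% and 12.7%. Pfkfb3, which makes the allosteric activator of phosphofructokinase, read 70.1, 47.6 and 55.1 CPM in saline and 427, 247 and 273 CPM in the decoy libraries (log2 change 2.45, SE 0.24, adjusted p = 6.53e-04). Slc16a3, the lactate exporter of glycolytic fibres, rose from 127, 145 and 103 CPM to 248, 287 and 307 CPM (log2 change 1.17, SE 0.13, adjusted p = 3.55e-04). Slc2a3, the glucose transporter GLUT3, was low in saline at 1.85, 1.64 and 1.71 CPM and stood at 14.2, 10.01 and 11.4 CPM in the decoy libraries (log2 change 2.77, SE 0.14, adjusted p = 1.83e-06). The groups did not overlap for these 3 genes. Tpi1, triose phosphate isomerase, rose by 0.59 (SE 0.13, adjusted p = 0.00894; 9-library adjusted p = 0.058). Ppp1r3d, a glycogen-targeting subunit of protein phosphatase 1, fell by 1.55 (SE 0.19, adjusted p = 7.79e-04). The count of higher glycolysis members was 3 without decoy 3 and 8 without decoy 1, and that of lower ones 2 without saline 1 or saline 3.

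On the insulin side, Irs2, the docking protein of the receptor, rose from 19.7, 20.4 and 20.5 CPM to 55.7, 36.4 and 51.9 CPM (log2 change 1.25, SE 0.14, adjusted p = 6.29e-04), and the kinase Akt2 rose by 0.40 (SE 0.09, adjusted p = 0.00813). Tbc1d1, which restrains GLUT4 vesicles until it is phosphorylated, fell from 154, 217 and 118 CPM to 70.99, 62.1 and 51.7 CPM (log2 change −1.40, SE 0.23, adjusted p = 0.00479). Pik3r1, the regulatory subunit of phosphoinositide 3-kinase, fell from 58.4, 57.1 and 52.3 CPM to 33.2, 26.95 and 28.5 CPM (log2 change −0.92, SE 0.09, adjusted p = 1.50e-04). Grb10, an adaptor that inhibits the insulin receptor, fell from 89.8, 72.2 and 74.4 CPM to 39.8, 32.2 and 42.5 CPM (log2 change −1.04, SE 0.12, adjusted p = 4.07e-04). All 3 were lower in each decoy library than in any saline library.

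Among genes of lipid synthesis and of fat cells, more members fell than rose. In muscle RNA such genes come from adipocytes between the fibres as well as from fibres, and in bulk samples fewer cells of a type and less RNA per cell cannot be told apart. Of 27 tested genes of fatty acid and sterol synthesis, 2 rose (Srebf1 and Insig2) and 11 fell (1 and 8 in the 9-library fit), with a median log2 change of −0.30. Of 21 adipocyte genes, 0 rose and 8 fell (0 and 8), with a median of −1.34 (−2.50 to −1.05 with 1 library left out, lowest without decoy 1), and 19 of the 21 had a negative fold change. Their summed level without Car3, which muscle fibres also express, was 449.7 to 661 CPM in saline and 360.2 to 407 CPM in the decoy libraries.

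Pnpla3, a lipid-droplet acyltransferase and lipase, fell from 9.95, 10.6 and 3.69 CPM to 0.881, 0.448 and 0.530 CPM (log2 change −3.68, SE 0.52, adjusted p = 0.00476). Elovl6, which elongates fatty acids, fell from 8.82, 8.98 and 4.05 CPM to 1.96, 1.64 and 1.21 CPM (log2 change −2.18, SE 0.34, adjusted p = 0.00459). Acaca, the carboxylase that commits carbon to fatty acid synthesis, fell from 31.01, 29.7 and 23.6 CPM to 17.2, 13.6 and 13.7 CPM (log2 change −0.92, SE 0.13, adjusted p = 0.00105). Saline 3 was the lowest saline library for all 3 genes and still lay above each decoy library. Acly, ATP citrate lyase, fell by 0.69 (SE 0.13, adjusted p = 0.00548). Srebf1, the transcription factor that drives this pathway, moved the other way, from 28.3, 24.3 and 22.6 CPM to 61.1, 43.3 and 46.5 CPM (log2 change 1.01, SE 0.14, adjusted p = 0.00124). The count of lower synthesis genes was 7 without saline 2, and that of higher ones 1 without decoy 1, decoy 3, saline 1, saline 2 or saline 3.

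Lep, the adipocyte hormone leptin, stood at 8.89, 9.89 and 1.66 CPM in saline and 0.383, 0.189 and 0.195 CPM in the decoy libraries (log2 change −4.70, SE 0.93, adjusted p = 0.0228). Saline 3 lay between the other saline libraries and the decoy libraries, and the call ended without decoy 1, decoy 2, decoy 3 or saline 1 (adjusted p up to 0.108). Retn, resistin, fell by 2.78 (SE 0.69, adjusted p = 0.0362), a call that ended without decoy 2, decoy 3, saline 1 or saline 2 (adjusted p up to 0.109). Calls that held in each fit with 1 library left out included those of Adrb3 and Fabp4. Adrb3, the fat cell's beta-3 adrenergic receptor, stood at 1.52, 0.908 and 0.545 CPM in saline and 0.199, 0.0861 and 0.0837 CPM in the decoy libraries (log2 change −2.97, SE 0.48, adjusted p = 0.0025). Fabp4, the fatty acid binding protein of adipocytes and capillary endothelium, stood at 209.6, 200.1 and 185 CPM in saline and 114, 154 and 133 CPM in the decoy libraries (log2 change −0.57, SE 0.11, adjusted p = 0.00554). Slc7a10, an amino acid transporter of white fat, fell by 3.00 (SE 0.60, adjusted p = 0.0123), a call that ended without decoy 3 (adjusted p = 0.0643). Lgals12, a galectin of lipid droplets, and Mrap, the melanocortin receptor accessory protein, fell by 2.56 (SE 0.64, adjusted p = 0.035) and 2.37 (SE 0.63, adjusted p = 0.0357), and both calls ended without decoy 2, decoy 3, saline 1 or saline 2 (adjusted p up to 0.124 and 0.118). The defining adipocyte genes Adipoq and Plin1 did not pass the test: Adipoq, adiponectin, read 20.2, 16.98 and 6.28 CPM in saline and 5.20, 0.999 and 1.23 CPM in the decoy libraries (log2 change −2.53, SE 0.86, adjusted p = 0.107) and Plin1, perilipin, 21.8, 17.5 and 6.39 CPM in saline and 5.50, 0.844 and 1.59 CPM in the decoy libraries (log2 change −2.50, SE 0.88, adjusted p = 0.115). Saline 3 was the lowest saline library and decoy 1 the highest decoy library for both, and the groups did not overlap. The count of lower adipocyte genes was 5 without decoy 2, decoy 3 or saline 1.

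Car3, carbonic anhydrase III (chromosome 3, 14863512 to 14872523, plus strand), which is abundant in muscle as well as fat, fell from 2959, 2996 and 3537 CPM to 1257, 1274 and 1209 CPM (log2 change −1.34, SE 0.11, adjusted p = 6.26e-05). The AAV-GFP libraries held 1949 to 3818 CPM. Ces1d, a triacylglycerol-hydrolysing carboxylesterase, fell from 67.5, 52.5 and 52.5 CPM to 7.76, 10.04 and 9.11 CPM (log2 change −2.68, SE 0.13, adjusted p = 2.40e-06), with 15.3 to 61.7 CPM in the AAV-GFP libraries. Of 29 fatty acid oxidation genes, 4 rose (Ucp3, Acadl, Pnpla2 and Cpt1a) and 2 fell (Echs1 and Lpl; 1 and 1 in the 9-library fit). These were 13.8% and 6.90%, beside 13.1% and 12.7% of all autosomal genes. Echs1, enoyl-CoA hydratase, fell by 0.53 (SE 0.08, adjusted p = 0.00102). The higher count was 1 without decoy 3 and 2 without saline 1 or saline 2, and the lower count 1 without decoy 1 or decoy 2.

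Of the slow-fibre genes, those that passed the test were lower in the decoy libraries. Slow, oxidative fibres hold their own set of myosin, troponin and calcium-handling isoforms, and the gastrocnemius has few of them beside its fast glycolytic fibres. Of 20 tested slow-fibre genes, 0 rose and 7 fell, the median log2 change was −0.68 and 19 of 20 fold changes were negative, against 0 higher and 1 lower in the 9-library fit. Pln, phospholamban, which restrains the calcium pump of slow fibres, fell from 11.6, 10.7 and 23.6 CPM to 3.82, 2.96 and 3.70 CPM (log2 change −2.13, SE 0.35, adjusted p = 0.00769). Mybpc1, slow myosin-binding protein C, fell from 2009, 2426 and 2871 CPM to 1803, 1369 and 1439.8 CPM (log2 change −0.66, SE 0.16, adjusted p = 0.0119). Tnnt1, slow troponin T, fell from 459, 499.8 and 804 CPM to 331, 293 and 371 CPM (log2 change −0.82, SE 0.21, adjusted p = 0.0236). Saline 3 was the highest library for all 3. The fall of Tnnt1 ended without decoy 1 or decoy 2 (adjusted p up to 0.102), and the 9-library fit ended the calls of Mybpc1 and Tnnt1 (adjusted p from 0.113 to 0.154). The count of lower slow-fibre genes was 3 without decoy 2.

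Of 22 fast-fibre genes, 4 rose (among them Mylk2, Gpd1 and Myl1) and 0 fell (0 and 0 in the 9-library fit). These were 18.2% and 0%, beside 13.1% and 12.7% of all autosomal genes. At an unadjusted p under 0.05 the 6-library fit had 6 higher and 2 lower and the 9-library fit 3 and 0, and DESeq2 called 7 and 1 on 6 libraries. Mylk2, the kinase of the fast regulatory myosin light chain, rose from 677, 712 and 535 CPM to 977, 961 and 1091 CPM (log2 change 0.66, SE 0.12, adjusted p = 0.00443; 9-library adjusted p = 0.113). The main fast proteins did not pass the test: Tnnt3, fast troponin T, had a log2 change of 0.21 (SE 0.15, adjusted p = 0.36) and Mylpf, the fast regulatory light chain, of 0.25 (SE 0.16, adjusted p = 0.279). The higher count was 1 without decoy 3 and 2 without decoy 2, saline 2 or saline 3. Mybph, myosin-binding protein H (chromosome 1, 134193448 to 134201232, plus strand), fell further than any other gene above 100 CPM that both fits called. It stood at 438, 326 and 296 CPM in saline and 29.6, 64.9 and 41.6 CPM in the decoy libraries (log2 change −2.96, SE 0.32, adjusted p = 0.00167), with 314 to 356 CPM in the AAV-GFP libraries.

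Channels and pumps of the fibre membrane set the excitability of muscle. Of 24 tested, 1 rose and 10 fell (0 and 3 in the 9-library fit). Kcnc1, the voltage-gated potassium channel Kv3.1, fell from 115, 133 and 110.1 CPM to 65.8, 56.3 and 73.4 CPM (log2 change −0.87, SE 0.11, adjusted p = 6.09e-04). Kcnj2, the inward rectifier Kir2.1, fell from 85.9, 79.5 and 108 CPM to 48.2, 40.4 and 56.2 CPM (log2 change −0.92, SE 0.15, adjusted p = 0.00265). The groups did not overlap for either gene, but the call of Kcnj2 ended in the 9-library fit (adjusted p = 0.0683). The member that rose was Kcnj12, a related rectifier, by 0.43 (SE 0.12, adjusted p = 0.0298), which was not called without decoy 1, decoy 2, decoy 3 or saline 2 (adjusted p up to 0.0873) or in the 9-library fit (adjusted p = 0.106). The count of lower channel genes was 5 without decoy 2 and 6 without saline 2.

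Excitation-contraction coupling genes showed 8 of 27 higher and 1 lower (1 and 0 in the 9-library fit). Sypl2, mitsugumin 29 of the triad membranes, rose from 369, 329 and 312 CPM to 460.02, 494 and 545 CPM (log2 change 0.57, SE 0.10, adjusted p = 0.00364). Jph1, a junctophilin that holds the triad together, rose by 0.48 (SE 0.11, adjusted p = 0.0123; 9-library adjusted p = 0.124). The lower member was Cacna1s, the voltage sensor of the triad, at 1381, 1374 and 1252 CPM in saline and 1051.2, 804 and 1105 CPM in the decoy libraries (log2 change −0.44, SE 0.13, adjusted p = 0.0341). Its call ended without decoy 2, saline 1 or saline 2 (adjusted p up to 0.105) and in the 9-library fit (adjusted p = 0.298). The higher count was 2 without decoy 3 or saline 2, 3 without saline 3 and 5 without decoy 1 or decoy 2. Of 24 genes of the dystrophin complex and membrane repair, 3 rose (among them Cav3 and Sgca) and 7 fell (2 and 3). These were 12.5% and 29.2%, beside 13.1% and 12.7% of all autosomal genes. Cav3, caveolin-3, rose from 23.9, 23.8 and 24.02 CPM to 37.3, 44.2 and 37.98 CPM (log2 change 0.73, SE 0.08, adjusted p = 2.61e-04), and Sntb1, a syntrophin, fell from 23.5, 25.03 and 21.2 CPM to 14.1, 11.7 and 9.40 CPM (log2 change −0.98, SE 0.14, adjusted p = 0.00121). Of 36 sarcomere and Z-disc genes, 3 rose (Pdlim5, Unc45b and Myoz1) and 9 fell (1 and 3), or 8.33% and 25%. Obsl1, which links the M-band to the membrane system, fell by 0.65 (SE 0.09, adjusted p = 9.93e-04) and Pdlim5, a Z-disc protein, rose by 0.67 (SE 0.10, adjusted p = 0.00154). Lower counts were 4 without decoy 2 or saline 2 for the dystrophin list and 4 without decoy 2 or decoy 3 and 5 without saline 1 for the sarcomere list, whose higher count was 1 without decoy 3 or saline 2.

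Regulators of muscle mass and regeneration moved individually. Mstn, myostatin, the secreted inhibitor of muscle growth (chromosome 1, 53061640 to 53068079, plus strand), rose from 70.8, 66.98 and 45.97 CPM to 127, 127 and 143 CPM (log2 change 1.11, SE 0.15, adjusted p = 0.00124), while the AAV-GFP libraries held 34.03 to 54.5 CPM. Its paralogue Gdf11 rose from 9.84, 8.57 and 8.73 CPM to 16.2, 14.1 and 15.4 CPM (log2 change 0.75, SE 0.09, adjusted p = 4.39e-04). Bmp4, a bone morphogenetic protein, fell by 0.77 (SE 0.13, adjusted p = 0.00205) and Inhba, the activin A subunit, by 0.67 (SE 0.12, adjusted p = 0.00289). In all, 4 of 25 genes of myostatin, activin and BMP signalling rose (Gdf11, Mstn, Acvr2a and Acvr1) and 5 fell (Bmp4, Inhba, Bmp6, Fstl1 and Acvr2b; 2 and 2 in the 9-library fit), and the higher count was 2 without decoy 1, decoy 3 or saline 2. Those shares were 16% and 20%, beside 13.1% and 12.7% of all autosomal genes. Among 24 atrophy and FOXO genes, 4 rose (Map1lc3a, Usp2, Fbxo30 and Fbxo21) and 6 fell (2 and 2), or 16.7% and 25%. Map1lc3a, an autophagosome protein, rose from 63.5, 66.95 and 71.9 CPM to 131, 149 and 134 CPM (log2 change 1.03, SE 0.09, adjusted p = 5.09e-05). The transcription factor Foxo3 fell by 0.47 (SE 0.09, adjusted p = 0.00476). Sesn1, a sestrin that restrains growth signalling, fell from 51.5, 34.7 and 47.2 CPM to 20.01, 19.5 and 21.6 CPM (log2 change −1.12, SE 0.13, adjusted p = 6.55e-04). Members called higher numbered 2 without decoy 1 or saline 1, the lower count 3 without decoy 1.

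Myogenic factors also went both ways, with 3 of 19 satellite cell and myogenic genes higher (Myod1, Myf6 and Sdc4) and 5 lower (Myog, Chodl, Hey1, Heyl and Cd34; 2 and 0 in the 9-library fit). Those shares were 15.8% and 26.3%, beside 13.1% and 12.7% of all autosomal genes. Myod1 rose from 28.6, 24.5 and 27.1 CPM to 39.1, 41.8 and 33.3 CPM (log2 change 0.51, SE 0.10, adjusted p = 0.00445). Myf6, the factor of mature fibres, rose from 72.04, 75.9 and 71.2 CPM to 88.6, 101 and 104 CPM (log2 change 0.42, SE 0.08, adjusted p = 0.00499). Myog, which drives differentiation, fell from 19.6, 16.2 and 18.5 CPM to 13.3, 12.02 and 9.07 CPM (log2 change −0.66, SE 0.14, adjusted p = 0.0079), a call that ended in the 9-library fit (adjusted p = 0.0839). At the synapse, Chrna1, the acetylcholine receptor alpha subunit, rose from 18.7, 18.5 and 18.6 CPM to 32.1, 36.05 and 30.6 CPM (log2 change 0.82, SE 0.08, adjusted p = 1.17e-04), Lrp4, the agrin receptor, fell from 25.1, 23.9 and 28.2 CPM to 17.8, 14.3 and 16.8 CPM (log2 change −0.66, SE 0.10, adjusted p = 0.0013), and Agrn, agrin itself, fell by 0.45 (SE 0.08, adjusted p = 0.00316). The 9-library fit ended the calls of Chrna1 and Lrp4 (adjusted p from 0.0753 to 0.0757). Of 22 receptor and denervation genes, 5 rose (Chrna1, Ache, Musk, Ufsp1 and Colq) and 5 fell (among them Lrp4, Agrn, Myog and Hdac4; 0 and 1 in the 9-library fit). Each share was 22.7%, beside 13.1% higher and 12.7% lower over all autosomal genes. The lower myogenic count was 2 without saline 3 and 3 without decoy 2 or decoy 3, and the higher denervation count 2 without decoy 2 and 3 without saline 1 or saline 2.

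Of 19 secreted muscle factors, 1 rose, Mstn, and 5 fell in the 6-library fit, and the 9-library fit also had 1 higher and 5 lower. Il15, a cytokine that supports natural killer and memory T cells, fell from 15.7, 16.4 and 16.03 CPM to 4.80, 6.49 and 5.26 CPM (log2 change −1.54, SE 0.11, adjusted p = 1.91e-05), with 14.7 to 18.2 CPM in the AAV-GFP libraries. Angptl2, an angiopoietin-like protein, fell from 93.4, 86.98 and 87.4 CPM to 51.3, 49.5 and 44.97 CPM (log2 change −0.88, SE 0.08, adjusted p = 7.79e-05). Fgf2 fell from 16.4, 18.3 and 15.8 CPM to 8.99, 6.58 and 7.80 CPM (log2 change −1.11, SE 0.12, adjusted p = 2.03e-04). Ostn, musclin, stood at 110.1, 87.3 and 98.7 CPM in saline and 12.5, 35.4 and 26.97 CPM in the decoy libraries (log2 change −1.98, SE 0.39, adjusted p = 0.0193), with its call ended without decoy 3, saline 1, saline 2 or saline 3 (adjusted p up to 0.0804). Nrg4, a neuregulin, fell by 2.29 (SE 0.51, adjusted p = 0.0137), a call that ended without decoy 3 (adjusted p = 0.0675). The lower count was 3 without decoy 3, and the higher one 2 without decoy 2 and 3 without saline 1.

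Hormone-related genes were among those that changed, and they are listed here with the sex-linked pattern of the groups in view. Steroid and thyroid hormone genes showed 4 of 16 higher (Slc16a10, Rxrg, Nr1d1 and Rxra) and 5 lower (Dio2, Nr3c2, Greb1, Nr3c1 and Esr1; 3 and 4 in the 9-library fit). Nr3c1, the glucocorticoid receptor, fell from 170.1, 188 and 144 CPM to 104, 99.9 and 104 CPM (log2 change −0.71, SE 0.10, adjusted p = 0.00109). Esr1, the oestrogen receptor alpha, fell from 99.7, 66.1 and 72.4 CPM to 35.7, 40.6 and 39.5 CPM (log2 change −1.04, SE 0.15, adjusted p = 0.00151; 9-library adjusted p = 0.0556). Greb1, a known oestrogen-receptor target in other tissues, fell from 2.94, 5.12 and 3.85 CPM to 1.36, 1.12 and 1.52 CPM (log2 change −1.56, SE 0.21, adjusted p = 8.84e-04). Dio2, which activates thyroid hormone, fell by 1.19 (SE 0.13, adjusted p = 2.48e-04), and the thyroid hormone transporter Slc16a10 rose by 0.71 (SE 0.09, adjusted p = 5.35e-04). Among growth hormone, IGF and STAT5 genes, 2 of 17 rose (Igfbp4 and Jak2) and 6 fell (1 and 2). Igfbp3, the carrier of insulin-like growth factors, fell from 14.3, 13.2 and 14.1 CPM to 8.32, 7.87 and 6.81 CPM (log2 change −0.86, SE 0.09, adjusted p = 2.66e-04) and Socs2, a feedback inhibitor of growth hormone signalling, by 1.21 (SE 0.22, adjusted p = 0.00906; 9-library adjusted p = 0.0607). Of 19 glucocorticoid-responsive genes, 5 rose (Errfi1, Sgk1, Lcn2, Fkbp5 and Ddit4) and 2 fell (Sesn1 and Klf15; 5 and 1). Sgk1, a kinase of sodium transport, rose from 166, 198 and 126 CPM to 297, 324 and 260.3 CPM (log2 change 0.85, SE 0.16, adjusted p = 0.0051), and Errfi1, an inhibitor of the epidermal growth factor receptor, by 0.72 (SE 0.10, adjusted p = 0.001).

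The circadian clock of muscle is a loop in which BMAL1 (Arntl) with CLOCK or NPAS2 binds E-box letters at its targets, and the products of Per, Cry, Nr1d1 and Bhlhe41 act back on it. Of 24 tested clock and output genes, 8 rose and 3 fell (5 and 0 in the 9-library fit). The RefSeq promoters of 3 changed clock genes are shown because their windows, the 250 bases before the start on GRCm38.p6, hold the E-box letters CACGTG, here in capitals and reading toward the gene. In all, 6 of 19 clock genes with a window held them (31.6%), against 1854 of 27025 genes with a window (6.86%), and on either strand the letters read the same. The remaining 3 of these 6, Per1, Tef and Tspan4, did not pass the test (adjusted p = 0.0508, 0.244 and 0.116). The D-box letters TTATGTAA or TTACGTAA, searched on both strands, were in 0 of the 19 and in 1.10% of all.

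Ciart, chr3:95882229-95882478, minus strand: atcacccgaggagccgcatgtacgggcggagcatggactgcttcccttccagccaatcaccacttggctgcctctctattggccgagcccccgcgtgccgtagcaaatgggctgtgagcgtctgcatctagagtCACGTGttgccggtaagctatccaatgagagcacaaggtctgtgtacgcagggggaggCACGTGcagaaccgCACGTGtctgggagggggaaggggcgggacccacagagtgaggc
Bhlhe41, chr6:145865421-145865670, minus strand: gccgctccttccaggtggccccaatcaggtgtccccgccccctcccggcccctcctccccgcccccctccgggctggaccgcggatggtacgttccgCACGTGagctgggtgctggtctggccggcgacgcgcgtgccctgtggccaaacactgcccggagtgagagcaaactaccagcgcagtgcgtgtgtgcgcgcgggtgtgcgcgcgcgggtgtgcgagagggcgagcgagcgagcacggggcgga
Cry1, chr10:85185055-85185304, minus strand: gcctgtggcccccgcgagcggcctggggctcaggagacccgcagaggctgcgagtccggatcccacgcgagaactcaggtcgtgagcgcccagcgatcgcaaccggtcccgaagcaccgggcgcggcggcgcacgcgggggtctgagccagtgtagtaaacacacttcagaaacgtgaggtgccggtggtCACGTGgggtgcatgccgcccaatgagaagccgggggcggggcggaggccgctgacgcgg

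Ciart, a repressor of the loop whose window holds 3 matches, rose from 1.28, 3.65 and 2.27 CPM to 11.99, 12.6 and 19.01 CPM (log2 change 2.60, SE 0.39, adjusted p = 0.0063). Bhlhe41, a repressor with 1 match, rose from 28.1, 27.01 and 23.9 CPM to 70.7, 85.3 and 84.2 CPM (log2 change 1.60, SE 0.10, adjusted p = 5.84e-06), with 25.4 to 30.9 CPM in the AAV-GFP libraries. Nr1d1, REV-ERB alpha, which represses Arntl, rose from 37.8, 41.01 and 51.1 CPM to 119, 79.9 and 129 CPM (log2 change 1.33, SE 0.19, adjusted p = 0.00261). Dbp, an output factor, rose from 53.9, 65.4 and 70.1 CPM to 131, 142 and 165 CPM (log2 change 1.21, SE 0.12, adjusted p = 1.50e-04). The decoy libraries were higher than all saline libraries for each of the 4. Usp2, an oscillating deubiquitinase, rose by 0.70 (SE 0.11, adjusted p = 0.00183). The lower members were Arntl, from 16.8, 15.4 and 11.9 CPM to 10.7, 7.91 and 8.79 CPM (log2 change −0.68, SE 0.15, adjusted p = 0.00925), Npas2 by 0.81 (SE 0.21, adjusted p = 0.0185) and Cry1, whose window holds 1 match, by 0.25 (SE 0.07, adjusted p = 0.0299). None of these 3 falls was called in the 9-library fit (adjusted p from 0.0717 to 0.294), Cry1 was called in 1 of the 6 fits with 1 library left out, and the lower count was 1 without decoy 3, saline 1 or saline 2. The time of day at collection is not given, and its part in these differences was not tested.

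**Figure D3:**
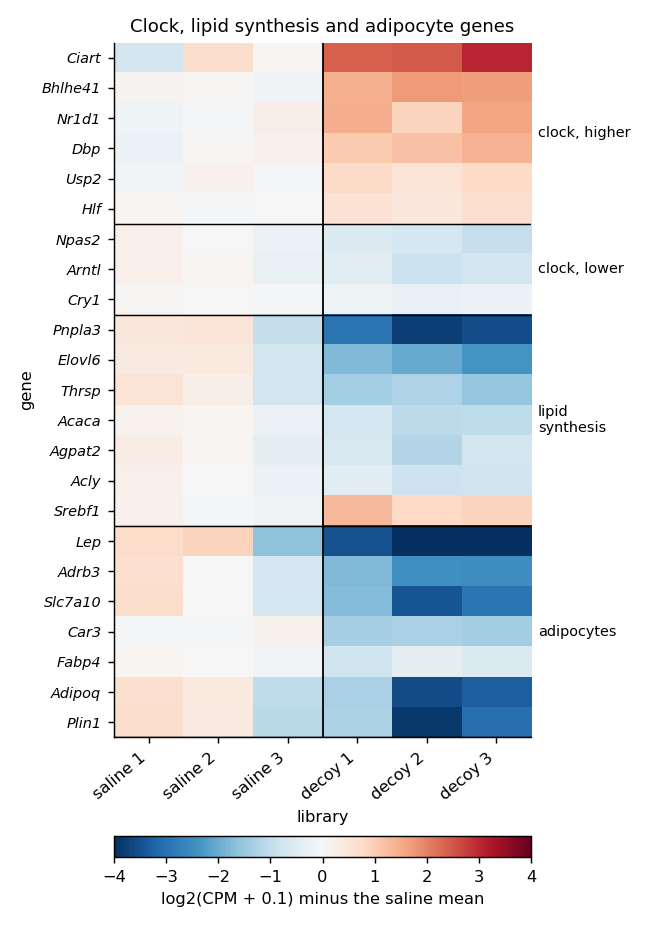
Log2(CPM + 0.1) of clock, lipid synthesis and adipocyte genes in each library (columns) minus the mean of the saline libraries (colour, limits ±4), red for higher and blue for lower. Ciart to Hlf are red in the 3 decoy libraries, and saline 3 stands below the other saline libraries for Pnpla3, Elovl6, Lep, Adipoq and Plin1.

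Heat shock proteins are chaperones that hold unfolded proteins and are induced by the factor HSF1. Of 23 tested, 10 rose and 1 fell (8 and 0 in the 9-library fit), with a median log2 change of 0.32. Dnajb1, an HSP40 co-chaperone, rose from 10.2, 10.6 and 11.9 CPM to 31.6, 22.9 and 21.1 CPM (log2 change 1.21, SE 0.15, adjusted p = 7.68e-04). Hsph1, HSP105, rose from 86.5, 78.5 and 82.7 CPM to 164, 123 and 150.4 CPM (log2 change 0.82, SE 0.11, adjusted p = 6.84e-04). Hsf1 itself rose by 0.44 (SE 0.07, adjusted p = 0.00205), Hsp90aa1 by 0.60 (SE 0.11, adjusted p = 0.00386) and Hspa8 by 0.40 (SE 0.08, adjusted p = 0.00628). The groups did not overlap for these 5 genes. The member that fell was Dnajb4, by 0.33 (SE 0.09, adjusted p = 0.0251), which was not called in the 9-library fit (adjusted p = 0.212) or without decoy 2, decoy 3, saline 1, saline 2 or saline 3 (adjusted p up to 0.0732). The list of amino acid and unfolded protein stress had 6 of 25 higher and 3 lower (Xbp1, Ddit3 and Asns), against 0 and 0 in the 9-library fit. At an unadjusted p under 0.05 the 9-library fit had 4 higher and 4 lower, and DESeq2 called 7 and 3 on 6 libraries. The higher count was 3 without saline 1 or saline 2, and the lower count 1 without decoy 1 or saline 2. Mthfd2, of mitochondrial one-carbon metabolism, rose by 1.14 (SE 0.14, adjusted p = 5.48e-04), Chac1, which degrades glutathione, by 1.30 (SE 0.20, adjusted p = 0.00398), and Xbp1 fell by 0.68 (SE 0.09, adjusted p = 6.69e-04). The 9-library adjusted p of these 3 ran from 0.0657 to 0.142.

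Of all lists, those of MHC class II, T cells, B and plasma cells, macrophages and complement had the highest shares of members called higher, while those of interferon-stimulated and MHC class I genes lay below the 13.1% of all autosomal genes. Of 30 tested genes of T cells and cytotoxic lymphocytes, 27 rose and 0 fell (10 and 0 in the 9-library fit), with a median log2 change of 3.61. A further 6 members had too few reads to be tested, as had 6 of the B and plasma cell list. Members with almost no reads in saline were tested only because of their decoy level and could hardly be called lower. The shares and medians of these lists, and of the chemokines below, therefore partly reflect the read filter. Cd3e, a chain of the T cell receptor complex, stood at 0.124, 0.0721 and 0.0867 CPM in saline and 2.05, 2.07 and 0.809 CPM in the decoy libraries (log2 change 4.09, SE 0.45, adjusted p = 4.19e-04). Lck, the kinase at that receptor, stood at 0.138, 0.101 and 0.149 CPM in saline and 2.23, 2.65 and 1.19 CPM in the decoy libraries (log2 change 3.93, SE 0.36, adjusted p = 1.12e-04) and Il2rb, a receptor chain for interleukins 2 and 15, at 0.207, 0.0576 and 0.0743 CPM in saline and 3.41, 3.17 and 1.44 CPM in the decoy libraries (log2 change 4.54, SE 0.50, adjusted p = 7.56e-04). Cd8a, of cytotoxic T cells, had 0 counts in the saline libraries and stood at 0.781, 1.31 and 0.363 CPM in the decoy libraries, at least 60.7-fold higher against a floor of 3 counts over the saline group. Decoy 3 was the lowest decoy library for each of these genes. The absolute levels were low, under 4 CPM, and the AAV-GFP libraries spanned 0.908 to 11.5 CPM of Cd3e and 2.01 to 25.96 CPM of Il2rb. Cd4 read 0.221, 0.231 and 0.198 CPM in saline and 2.29, 2.41 and 0.934 CPM in the decoy libraries (log2 change 3.10, SE 0.39, adjusted p = 7.68e-04). The 9-library fit ended the calls of Cd8a and Cd4 (adjusted p from 0.0535 to 0.0737) and kept Cd3e, Lck, Il2rb and Cd27.

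Of 23 B and plasma cell genes, 17 rose and 3 fell (4 and 1 in the 9-library fit), with a median of 4.03 (3.56 to 4.69 with 1 library left out, highest without saline 1). Ighm, the constant region of immunoglobulin M (chromosome 12, 113418558 to 113422730, minus strand), rose from 151, 84.1 and 151 CPM to 668, 856 and 804 CPM (log2 change 2.59, SE 0.24, adjusted p = 3.57e-04). The AAV-GFP libraries stood at 155 to 189.6 CPM. Igha, of immunoglobulin A, stood at 0.0966, 0.101 and 0.0619 CPM in saline and 50.8, 31.2 and 21.9 CPM in the decoy libraries (log2 change 8.63, SE 0.54, adjusted p = 3.18e-04) and Jchain, which joins multimeric immunoglobulins, at 0.400, 0.202 and 0.557 CPM in saline and 85.6, 41.01 and 27.5 CPM in the decoy libraries (log2 change 7.02, SE 0.72, adjusted p = 0.00381). The B cell genes Ms4a1, at 0.0414, 0.0144 and 0.0124 CPM in saline and 1.15, 1.67 and 0.237 CPM in the decoy libraries, and Cd79a, at 0.0690, 0 and 0.0495 CPM in saline and 1.29, 1.26 and 0.349 CPM in the decoy libraries, rose by 5.38 (SE 0.96, adjusted p = 0.00649) and 4.51 (SE 0.76, adjusted p = 0.00452), and the 9-library fit ended the calls of Ms4a1 and Cd79a (adjusted p from 0.0572 to 0.0952). The 3 members that fell, Xbp1, Ebf1 and Prdm1, are transcription factors that are not limited to B and plasma cells. Which cells the falls and the rises of this list come from was not tested.

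Of 29 monocyte and macrophage genes, 21 rose and 0 fell, with a median log2 change of 0.91, and of 13 MHC class II genes, 12 rose and 0 fell, with a median of 1.68. The 9-library edgeR fit called 0 of either list, with 2 macrophage and 6 class II genes higher at an unadjusted p under 0.05, while DESeq2 on 6 libraries called 22 and 12 higher. Complement C1qa stood at 12.3, 12.1 and 15.03 CPM in saline and 31.8, 28.2 and 24.4 CPM in the decoy libraries (log2 change 1.10, SE 0.12, adjusted p = 2.52e-04), the lysozyme gene Lyz2 at 29.98, 31.6 and 37.6 CPM in saline and 106, 93.1 and 59.8 CPM in the decoy libraries (log2 change 1.38, SE 0.21, adjusted p = 0.00366) and the mannose receptor Mrc1 at 20.1, 20.1 and 22.6 CPM in saline and 37.04, 26.9 and 32.8 CPM in the decoy libraries (log2 change 0.62, SE 0.11, adjusted p = 0.00364). Cd74, the invariant chain of class II molecules, stood at 26.95, 25.6 and 37.00 CPM in saline and 138, 129 and 65.9 CPM in the decoy libraries (log2 change 1.89, SE 0.32, adjusted p = 0.00931), and Ciita, the master factor of class II genes, at 0.787, 0.721 and 1.08 CPM in saline and 6.31, 5.12 and 2.22 CPM in the decoy libraries (log2 change 2.39, SE 0.40, adjusted p = 0.00541). Decoy 3 was the lowest decoy library for C1qa, Lyz2, Cd74 and Ciita. The 9-library adjusted p-values of these 5 genes ran from 0.142 to 0.446, and the AAV-GFP libraries spanned 137 to 1738 CPM of Cd74. The call of Cd74 also ended without saline 1 (adjusted p = 0.0505).

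Complement genes showed 15 of 23 higher and 1 lower (1 and 1 in the 9-library fit). C7, a component of the membrane attack complex (chromosome 15, 4988762 to 5063740, minus strand), was the member that both fits called higher: it stood at 0.980, 0.749 and 0.966 CPM in saline and 29.2, 14.1 and 19.2 CPM in the decoy libraries (log2 change 4.53, SE 0.32, adjusted p = 2.18e-04), with 0.810 to 1.30 CPM in the AAV-GFP libraries. C3, the hub of the cascade, stood at 64.9, 61.9 and 67.8 CPM in saline and 257, 137 and 130.1 CPM in the decoy libraries (log2 change 1.43, SE 0.27, adjusted p = 0.0109; 9-library adjusted p = 0.133), highest in decoy 1. Masp1, a protease of the lectin pathway, fell by 0.78 (SE 0.15, adjusted p = 0.00473). Members called higher numbered 8 without saline 2 and 9 without saline 1.

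Of 30 tested chemokines and cytokines, 12 rose and 3 fell (5 and 1 in the 9-library fit). Cxcl9, which draws activated T cells, stood at 0.511, 0.115 and 0.173 CPM in saline and 17.9, 19.01 and 5.68 CPM in the decoy libraries (log2 change 5.73, SE 0.79, adjusted p = 0.00791), and Ccl5 at 0.0414, 0.0144 and 0.0743 CPM in saline and 2.33, 2.64 and 0.962 CPM in the decoy libraries (log2 change 5.40, SE 0.56, adjusted p = 4.70e-04). Cxcl10, like Cxcl9 a ligand of CXCR3 on activated T cells, stood at 0.110, 0.144 and 0.0743 CPM in saline and 3.41, 3.69 and 1.16 CPM in the decoy libraries (log2 change 4.64, SE 0.56, adjusted p = 0.00122). Decoy 3 was the lowest decoy library for all 3, and still lay above every saline library. The AAV-GFP libraries spanned 14.2 to 296 CPM of Cxcl9, 1.28 to 29.7 CPM of Ccl5 and 3.32 to 30.5 CPM of Cxcl10. Cxcl13, which draws B cells, rose by 4.09 (SE 0.65, adjusted p = 0.00941), a call that ended without saline 1 (adjusted p = 0.0601). The lower members were Il15, described above, Il16, by 0.51 (SE 0.12, adjusted p = 0.015), and Il33, by 0.39 (SE 0.10, adjusted p = 0.0221). The 9-library fit did not call Il16 and Il33 (adjusted p from 0.413 to 0.453), and the lower count was 1 without saline 2.

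Of the interferon-stimulated genes, 8.62% were called higher and 13.8% lower, beside 13.1% and 12.7% of all autosomal genes. Many are induced through the interferon-stimulated response element, here read as a pair of GAAA blocks with 2 bases between them, and they include antiviral effectors. Of 58 tested, 5 rose (Zbp1, Usp18, Ifi35, Ifi27 and Ifit1) and 8 fell, against 0 and 0 in the 9-library fit, which had 2 and 2 at an unadjusted p under 0.05. DESeq2 called 8 and 9 on 6 libraries. The list had a median log2 change of 0.04, which turned to −0.0488 without decoy 1 and to −0.0272 without saline 1. The RefSeq windows of Cxcl10 and Ifit1, the 250 bases before the start on GRCm38.p6, are shown because both genes were called higher and both windows hold these letters on 1 of the strands. The letters, in capitals and searched on both strands, were in 18 of 43 interferon-stimulated genes with a window (41.9%), of which Ifit1 was the 1 called, in 3 of 20 chemokine and cytokine genes and in 936 of 27025 genes (3.46%).

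Cxcl10, chr5:92348890-92349139, minus strand: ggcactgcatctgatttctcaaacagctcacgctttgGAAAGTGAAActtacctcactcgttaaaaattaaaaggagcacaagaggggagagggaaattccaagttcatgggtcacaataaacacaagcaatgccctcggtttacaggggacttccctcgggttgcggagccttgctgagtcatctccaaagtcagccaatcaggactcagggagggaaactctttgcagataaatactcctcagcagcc
Ifit1, chr19:34640639-34640888, plus strand: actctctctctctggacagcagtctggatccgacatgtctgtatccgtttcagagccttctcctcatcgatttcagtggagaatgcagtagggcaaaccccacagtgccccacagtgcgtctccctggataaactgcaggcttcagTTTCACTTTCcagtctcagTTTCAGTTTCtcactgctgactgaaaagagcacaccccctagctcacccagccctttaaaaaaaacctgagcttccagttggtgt

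Ifit1, an antiviral effector with 2 matches, stood at 1.30, 1.05 and 1.47 CPM in saline and 2.81, 2.33 and 1.41 CPM in the decoy libraries (log2 change 0.77, SE 0.25, adjusted p = 0.0473). Decoy 3 lay within the saline range. Its call ended without decoy 1, decoy 2, saline 1, saline 2 or saline 3 (adjusted p up to 0.155) and in the 9-library fit (adjusted p = 0.317). Zbp1, a sensor of Z-form nucleic acid, rose from 0.304, 0.245 and 0.545 CPM to 3.81, 2.88 and 1.24 CPM (log2 change 2.83, SE 0.47, adjusted p = 0.00512). Ifi44 fell from 0.773, 0.836 and 0.966 CPM to 0.341, 0.379 and 0.363 CPM (log2 change −1.25, SE 0.22, adjusted p = 0.00269). Xaf1 fell from 5.59, 6.46 and 7.31 CPM to 4.15, 3.996 and 3.71 CPM (log2 change −0.71, SE 0.12, adjusted p = 0.00253). Isg15, a ubiquitin-like modifier, did not pass the test (log2 change −0.45, SE 0.23, adjusted p = 0.186), nor did Irf7 (log2 change −0.05, SE 0.20, adjusted p = 0.879) or Ifit3 (log2 change 0.02, SE 0.19, adjusted p = 0.95). The 9-library fit ended the calls of Zbp1, Ifi44 and Xaf1 (adjusted p from 0.0945 to 0.231). Members called higher numbered 3 without decoy 2 or saline 2 and 11 without saline 3, the lower count 4 without decoy 3 or saline 2 and 5 without saline 3. Of 21 MHC class I genes, 1 rose, Tapbpl, and 1 fell, H2-T24 (0 and 1 in the 9-library fit), and the higher count was 2 without decoy 2 and 4 without decoy 3 or saline 3.

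**Figure D4:**
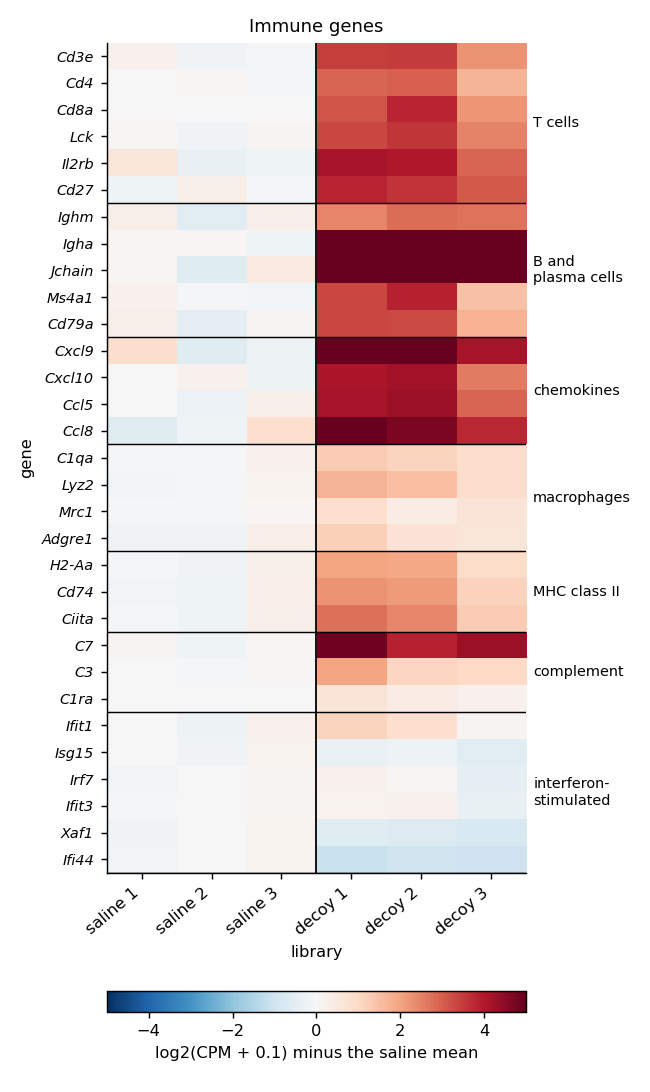
Log2(CPM + 0.1) of immune genes in each library (columns) minus the mean of the saline libraries (colour, limits ±5), red for higher and blue for lower. T cell, B cell and chemokine genes are red in the 3 decoy libraries, with decoy 3 paler for most of them, and Isg15, Irf7 and Ifit3, which did not pass the test, are pale.

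Vessel and connective tissue lists had more members lower than higher. Of 27 endothelial genes, 0 rose and 12 fell (0 and 2 in the 9-library fit), with a median log2 change of −0.22. Erg, the endothelial transcription factor, fell from 13.1, 13.4 and 14.5 CPM to 8.99, 8.87 and 9.11 CPM (log2 change −0.61, SE 0.08, adjusted p = 6.61e-04). Pecam1, the junction protein CD31, fell from 109.6, 111 and 109 CPM to 92.2, 74.96 and 90.4 CPM (log2 change −0.36, SE 0.09, adjusted p = 0.0169; 9-library adjusted p = 0.0998). The call of Pecam1 ended without saline 2 (adjusted p = 0.0599). The lower endothelial count was 7 without decoy 2, decoy 3, saline 1 or saline 2. Of 16 tendon and cartilage genes, 0 rose and 7 fell (0 and 1), and Kera, the tendon proteoglycan keratocan, fell from 30.2, 31.3 and 35.8 CPM to 13.3, 18.9 and 11.9 CPM (log2 change −1.14, SE 0.16, adjusted p = 0.00224; 9-library adjusted p = 0.148). The tendon count was 4 without decoy 2. Of 24 fibroblast genes, 3 rose (Cxcl14, Gdf10 and Cd55) and 7 fell (1 and 2), among them Pi16, of adventitial fibroblasts, from 44.1, 45.99 and 44.5 CPM to 22.8, 19.8 and 19.6 CPM (log2 change −1.11, SE 0.08, adjusted p = 1.65e-05). Fibroblast shares were 12.5% higher and 29.2% lower, beside 13.1% and 12.7% of all autosomal genes. The higher fibroblast count was 1 without decoy 2, saline 2 or saline 3. Collagen and matrix genes were split, with 5 of 34 higher (Col5a3, Mmp14, Col5a1, Col3a1 and Col5a2) and 7 lower (0 and 2). These were 14.7% and 20.6%, beside 13.1% and 12.7% of all autosomal genes. Col3a1 read 301, 200.01 and 318 CPM in saline and 349, 459 and 495 CPM in the decoy libraries (log2 change 0.67, SE 0.19, adjusted p = 0.0365), a call that ended without decoy 2, decoy 3, saline 1 or saline 2 (adjusted p up to 0.128) and in the 9-library fit (adjusted p = 0.378), and Col8a1 fell from 18.3, 16.5 and 20.6 CPM to 10.1, 9.82 and 11.1 CPM (log2 change −0.84, SE 0.10, adjusted p = 3.55e-04). Matrix counts were 1 without saline 2, 2 without decoy 3 and 3 without saline 1 for higher genes and 4 without decoy 2 for lower genes.

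**Figure D5:**
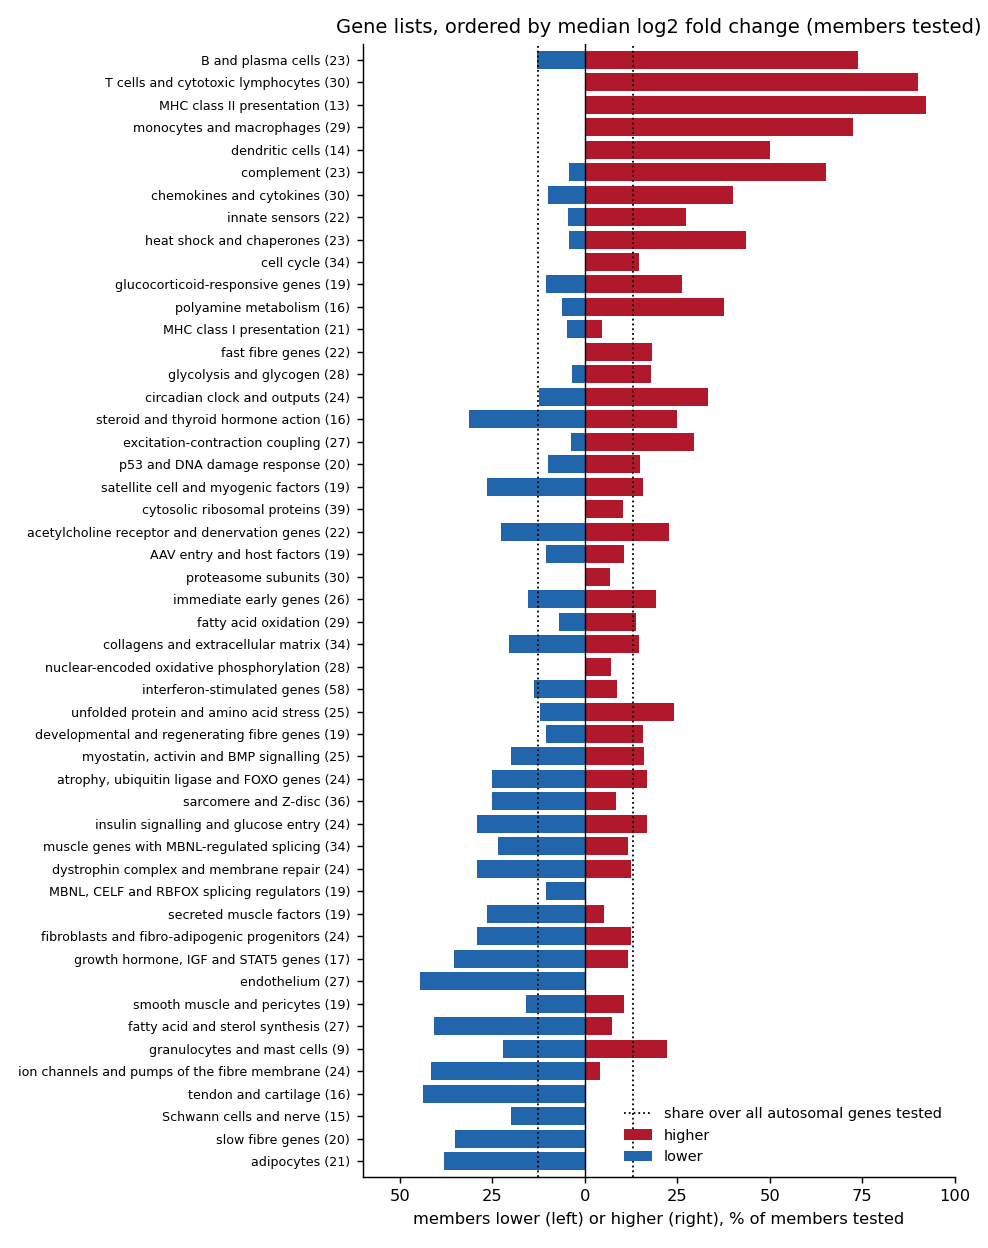
Share of the tested members of each gene list that were called higher (red, right) or lower (blue, left) in the 6-library fit, ordered by median log2 fold change, with the number of members tested in brackets and, as dotted lines, the shares over all autosomal genes tested (13.1% higher, 12.7% lower). The B cell, T cell, MHC class II and macrophage lists lie at the top, and the adipocyte and slow-fibre lists at the bottom.

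Lists of ribosomal protein, proteasome, oxidative phosphorylation and cell cycle genes had 10.3%, 6.67%, 7.14% and 14.7% of members called higher. All autosomal genes had 13.1% higher and 12.7% lower. Of 39 cytosolic ribosomal protein genes, 4 rose (Rps20, Rpl6, Rps9 and Rps14) and 0 fell, of 30 proteasome subunits 2 (Psma6 and Psmc4) and 0, of 28 nuclear-encoded oxidative phosphorylation genes 2 (among them Ndufs4) and 0, and of 34 cell cycle genes 5 (Cdkn2c, Cdkn1c, Cdk6, Rrm2 and Ccnd3) and 0. The 9-library fit called 0 ribosomal, 1 proteasome, 1 oxidative and 0 cell cycle genes higher. Higher counts were 0 without saline 2, 1 without decoy 2, saline 1 or saline 3 and 2 without decoy 3 for ribosomal proteins, 0 without saline 1 or saline 2 and 1 without decoy 2 or decoy 3 for the proteasome, 1 without decoy 2, decoy 3, saline 1, saline 2 or saline 3 and 4 without decoy 1 for oxidative phosphorylation and 2 without saline 1, 3 without decoy 2, saline 2 or saline 3 and 9 without decoy 3 for the cell cycle. Among host genes known for the entry of adeno-associated virus vectors, 2 of 19 rose (Vps52 and Tm9sf2) and 2 fell (Itgav and Pdgfra; 1 and 1 in the 9-library fit). Each share was 10.5%, under that of all autosomal genes. The integrin subunit Itgav fell from 51.05, 52.5 and 48.2 CPM to 32.7, 34.96 and 34.5 CPM (log2 change −0.57, SE 0.07, adjusted p = 4.71e-04). Members called higher numbered 0 without saline 1 or saline 2, 1 without decoy 1, decoy 3 or saline 3 and 4 without decoy 2.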

How the data were processed

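Poly(A) RNA libraries of gastrocnemius muscle were compared, 3 with the decoy vector against 3 with saline, grouped by their titles. The deposited files hold raw counts per gene, 1 file a library. The submitters' processing notes name cutadapt 2.10, STAR 2.7.5a, HTSeq 0.12.4, DESeq2 1.30.0 and mm10, with annotation release and strand setting not given in the sources used here. The 5 rows that name no gene (16.8% to 18.3% of a library) were left out. Gene names and positions came from GENCODE M21 (GRCm38), which matched 55141 of 55401 identifiers, with 260 not matched.

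Counts were filtered with filterByExpr, scaled by TMM and tested with edgeR 4.0.16 (R 4.3.3), robust quasi-likelihood, with Benjamini-Hochberg adjustment over 17811 genes on all chromosomes and a threshold of 0.05. SE is the absolute log2 fold change over the square root of F. In simulated counts for this comparison (17590 genes) the step recovered 83% of genes changed 2-fold and 98% of those changed 4-fold, with 5.24% false calls. The changed genes, 100 at each fold, were far fewer than those called in the data. They were drawn above a minimum mean level, so recovery of genes with the fewest reads was not measured. Alternatives were DESeq2 1.42.0, limma-voom (limma 3.58.1), other scalings and filters, a replicate block, each library left out and a fit of all 9 libraries.

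The gene lists, members and tests were chosen with earlier results of these data known, including that the 9-library fit calls fewer genes. Genes named were Mbnl1 and Mbnl2, the 15 largest changes per direction called by both fits at a mean of at least 1 CPM with groups that do not overlap, the 10 largest at a mean of at least 100 CPM, up to 4 members of a list by p-value, and all members where 5 or fewer moved in 1 direction, apart from some genes not reported here. Other genes, such as Adipoq, Plin1, Cd4, Cd8a, Cd74, C3, Isg15, Irf7, Ifit3, Tnnt3, Mylpf and Col3a1, were chosen after their values were seen. CPM of the AAV-GFP libraries are scaled over 9 libraries.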

Additional observations from a re-analysis of the deposited data

How the results depend on the processing

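The counts of genes higher and lower, 2235 and 2165, fell to 859 and 804 when all 9 libraries were fitted and to 426 and 206 with a tested log2 fold change above 0.58. With 1 library left out they ranged from 1418 to 2115 higher and from 1390 to 1887 lower, with 1418 and 1390 without saline 2. The other scalings, filters and tools kept both counts within 1.5 times, from 1877 to 2734 higher and from 1981 to 2599 lower. No pairing by replicate number was seen: deviations of same-numbered libraries correlated at −0.0199, −0.0392 and −0.0480. With 3 libraries a group, such values cannot exclude a pairing. With a replicate block 2068 genes were higher and 2024 lower. Of 279 named genes with a call, 184 kept it in every fit with 1 library left out and 140 in the 9-library fit. The median log2 fold change of 11 lists changed sign under some setting. It did so for the heart list at a minimum of 1 CPM in 3 libraries (−0.155), the sarcomere list with limma-voom quality weights (0.0475), the developmental fibre list at that minimum (−0.0692), with limma-voom (−0.0497) and with the replicate block (−0.0510), and the myostatin list with 9 libraries (0.0101) and limma-voom (0.000322). With 1 library left out it turned for the atrophy list (−0.0668 to 0.0710, positive without decoy 2 or saline 2), fatty acid oxidation (−0.0155 to 0.134, negative without decoy 3), immediate early genes (−0.118 to 0.162, negative without saline 1), collagens (−0.0145 to 0.0972, negative without decoy 3) and insulin signalling (−0.113 to 0.0447, positive without decoy 2). It also turned for interferon-stimulated genes (−0.0488 to 0.183, negative without decoy 1 or saline 1), developmental fibre genes (−0.113 to 0.246, negative without decoy 1, saline 1 or saline 2), unfolded protein stress (−0.0198 to 0.0670, negative without decoy 1 or saline 1) and the myostatin list (−0.0216 to 0.0262, positive without decoy 3, saline 2 or saline 3). The cause was not tested. With 3 libraries a group, the immune genes under 1 CPM in saline rest on few reads there.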

Other observations

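Immediate early and p53 genes, not described above, had shares called near those of all autosomal genes, 13.1% higher and 12.7% lower. Of 26 immediate early genes, 5 rose (Fosl2, Klf4, Nr4a2, Ier3 and Nr4a1) and 4 fell (Ccn1, Egr2, Myc and Egr1), 19.2% and 15.4%, against 3 and 1 in the 9-library fit. The higher count was 2 without decoy 1, decoy 3 or saline 2 and 3 without saline 1. Of 20 p53 and DNA damage genes, 3 rose (Ei24, Pmaip1 and Trp53inp2) and 2 fell (Gadd45b and Sesn1), 15% and 10%, against 1 and 2 in the 9-library fit. Of 15 Schwann cell and nerve genes, 0 rose and 3 fell (Egr2, Ngfr and Pmp22), none of which the 9-library edgeR fit called; at an unadjusted p under 0.05 that fit had 0 higher and 2 lower. The lower count was 7 without decoy 1 and 1 without decoy 3 or saline 2. Of 7 tested erythrocyte and platelet genes, 3 globin genes rose (Hbb-bs, Hba-a1 and Hbb-bt), which the 9-library edgeR fit did not call (3 higher and 0 lower at an unadjusted p under 0.05). All 3 calls ended without decoy 1, and 1 member was called without decoy 2, saline 2 or saline 3.

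The counts of Cdk8 and Lars2 moved together over the 9 libraries, with 0.543 to 0.657 Cdk8 counts for each Lars2 count while Lars2 itself ranged from 20916 to 75769 counts. The cause was not tested, nor was whether these reads come from the mRNAs of Cdk8 and Lars2.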
